A study of Rattus norvegicus with 13 samples.

Results

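Cytosolic ribosomal protein genes were followed in the liver of pregnant rats across 4 diets that differed in ethanol and in energy supply. A gene was a member if a non-control probe set (a set of short probes that measures 1 transcript) named it alone in the array's annotation and its symbol began with Rpl or Rps and a digit, began with Rplp, or was Rpsa. Kinases whose symbols begin with Rps6k were left out. The rule uses names only and no measured value. It gave 44 genes of the 4736 that a probe set named alone, measured by 64 probe sets: 28 genes of the large ribosomal subunit, 14 of the small subunit and 2 of the stalk. After the dimmest 40% of all probe sets were removed, 42 members remained of 3130 genes, with 60 probe sets: 28 of the large subunit, 13 of the small subunit and 1 of the stalk. A gene with several probe sets was counted by its brightest one. Of the 44 members, 7 carry the name of a copy or pseudogene (Rpl19l4, Rpl36al1, Rpl3l, Rplp1l3, Rps2-ps1, Rps27l and Rps4x-ps9), and ribosomal protein genes have many near-identical copies, so probes of 1 gene can also bind transcripts of another. Signals of different probe sets were not compared with each other as levels.

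The rats were time-mated Sprague Dawley females, and each of the 13 hepatic total RNA samples was hybridised to 1 one-colour array. The TEN-220 group (3 arrays) was the control, with an ethanol-free diet that supplied 220 kcal daily per kg of body weight raised to 3/4. The EtOH-220 group (3 arrays) received 12 g of ethanol per kg per day at that same energy supply. The TEN-160 group (3 arrays) was undernourished, with an ethanol-free diet that supplied 160 kcal daily on that scale. The EtOH-160 group (4 arrays) received 12 g of ethanol per kg per day at 160 kcal. All 4 groups share strain, sex and pregnancy. Age, gestational day, feeding route and whether 1 array holds 1 animal or a pool are not given in the sources used here, so p-values measure only the spread between these samples, which may be technical.

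Ribosomal proteins fold around the ribosomal RNAs to form the small subunit, which reads the messenger RNA, and the large subunit, which joins the amino acids; the stalk proteins of the large subunit recruit the elongation factors. The liver, which makes most plasma proteins, carries large amounts of their messenger RNAs. In mammals these messenger RNAs typically begin with a C followed by a run of pyrimidines, the 5′ terminal oligopyrimidine tract, through which nutrient and mTOR signalling control how fast they are translated.

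In a hybridisation control, all 3 TEN-160 arrays differed from the remaining 10. Their hybridisation control BioDn gave a 5′ to 3′ signal ratio of 0.422 to 0.497, against 0.132 to 0.21 on the other 10 arrays, so that ratio and the TEN-160 diet cannot be told apart. The GAPDH 3′ to 5′ ratio, a sign of RNA integrity, was 1.03 to 1.24 in TEN-160, 1.04 to 1.47 in EtOH-220, 1.5 to 1.73 in EtOH-160 and 1.52 to 2.32 in TEN-220. The same ratio of beta-actin overlapped, with 1.91 to 2.961 in TEN-160 and 1.775 to 3.002 on the other 10 arrays. Summed signals of 7 hepatocyte markers overlapped in all groups (140710.0 to 144070.0 in TEN-160, 137660.0 to 147860.0 in TEN-220), and limma called 0 of these 7 between TEN-160 and TEN-220 (1 at an unadjusted p under 0.05). Summed signals of 3 endothelial markers were 333 to 603 in TEN-160 and 229 to 252 in TEN-220, and those of 4 stellate cell and fibroblast markers 1841 to 4332 and 1690.3 to 1852. The endothelial sums of EtOH-220 (360 to 459) lay within the TEN-160 range. The 1 tested cholangiocyte marker read 94.3 to 102 in TEN-160 and 39.4 to 68.0 in TEN-220. Between these groups 1 of 3 endothelial markers was called higher and 1 of 2 fetal liver markers lower; the part of these differences in the results was not tested. In whole liver, fewer cells of a type and less RNA per cell cannot be told apart. TEN-220 replicate 1 had been deposited at a trimmed mean of 133 against 501 on the other arrays and was brought to the common scale by the normalisation.

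The 6 members whose TEN-160 arrays lay farthest outside the other 10 are shown by their promoters, 3 that were higher in TEN-160 (Rpl41, Rps6, Rpl39) and 3 that were lower (Rpl17, Rps24, Rpl5). Each line gives the 60 bases from 40 before the annotated transcription start to 20 after the start, 5′ to 3′ in the direction of the transcript, from RefSeq, build GRCr8. Capitals mark the longest run of at least 6 pyrimidines that begins with C, from 30 bases before to 20 after the annotated start.
Rpl41, chr7:1563478-1563537, minus strand: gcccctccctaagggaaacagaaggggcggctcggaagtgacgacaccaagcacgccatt
Rps6, chr5:106420521-106420580, minus strand: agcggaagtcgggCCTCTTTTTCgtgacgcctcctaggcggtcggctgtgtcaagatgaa
Rpl39, chrX:121195877-121195936, minus strand: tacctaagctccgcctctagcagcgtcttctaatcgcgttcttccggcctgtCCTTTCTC
Rpl17, chr18:70856236-70856295, plus strand: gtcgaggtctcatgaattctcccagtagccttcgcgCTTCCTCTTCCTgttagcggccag
Rps24, chr16:96477-96536, plus strand: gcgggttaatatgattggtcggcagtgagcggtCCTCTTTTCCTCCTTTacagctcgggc
Rpl5, chr14:1995206-1995265, minus strand: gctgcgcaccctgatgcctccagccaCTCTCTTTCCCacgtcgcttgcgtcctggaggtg
Such a tract was found in 5 of these 6 promoters, and no such tract was in the window of Rpl41. It was 16 bases long at Rps24, 12 at Rpl17, 11 at Rpl5, 10 at Rps6 and 8 at Rpl39. Counted from the annotated start, it began at -7 (Rps24), -4 (Rpl17), -14 (Rpl5), -27 (Rps6) and 13 (Rpl39). The tracts of Rps24 and Rpl17 spanned the annotated start, and those of Rpl5 and Rps6 ended before it. The tract of Rpl39 lay after the start and reached the end of the window, so its length may be cut. Among the 37 members with a promoter in the RefSeq table, 29 (78.4%) had a tract in this window on the strand of the transcript, against 34.5% of all 27457 promoters. On the opposite strand the shares were 29.7% and 37.2%. In the whole 300 bases (250 before and 50 after the start, both strands), CCGGAA, a core of ETS-type sites, was in 35.1% of the members and 15.8% of all promoters, GATGGC, a core of YY1-type sites, in 35.1% and 14.7%, and TATAAA in 13.5% and 14.3%. Members that were higher and members that were lower in TEN-160 both carried the tract: 5 of the 6 called higher with a promoter and 3 of the 3 called lower with a promoter. A match describes letters in the window and not a site in use.

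Across the TEN-220, EtOH-220 and EtOH-160 groups the ribosomal protein genes held nearly steady levels. Few of all genes differed either, with 0.0319% to 2.08% called by limma between these groups. The TEN-160 arrays departed in both directions at once, with a median distance for members close to that for all genes. The median member ranged 1.17-fold between the highest and lowest of those 3 group means, and the widest range was 1.46-fold (Rpl17, with a mean of 622 in EtOH-220 and 427 in EtOH-160). Over all 3130 genes the median range was 1.27-fold. Members also varied less between arrays of a group than other genes did, with a median within-group SD of 0.19 on the log2 scale against 0.3. The TEN-160 group mean lay a median 1.24-fold from the mean of the other 3 groups for members, close to 1.25-fold for all genes. The 3 TEN-160 arrays lay wholly above the other 10 for 10 of 42 members (6.74% of all genes did so) and wholly below for 6 (7.22% of all genes; 14% in either direction). The spread of members around their own means was widest on the TEN-160 arrays, with interquartile ranges of 0.57, 0.57 and 0.48 on the log2 scale. EtOH-220 replicate 1 followed with 0.41, and the other 9 arrays lay between 0.18 and 0.33. All genes were wider on the same arrays too, with 0.56, 0.64 and 0.73 on TEN-160, 0.57 on EtOH-220 replicate 1 and 0.38 to 0.44 on the other 9.

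**Figure D1:**
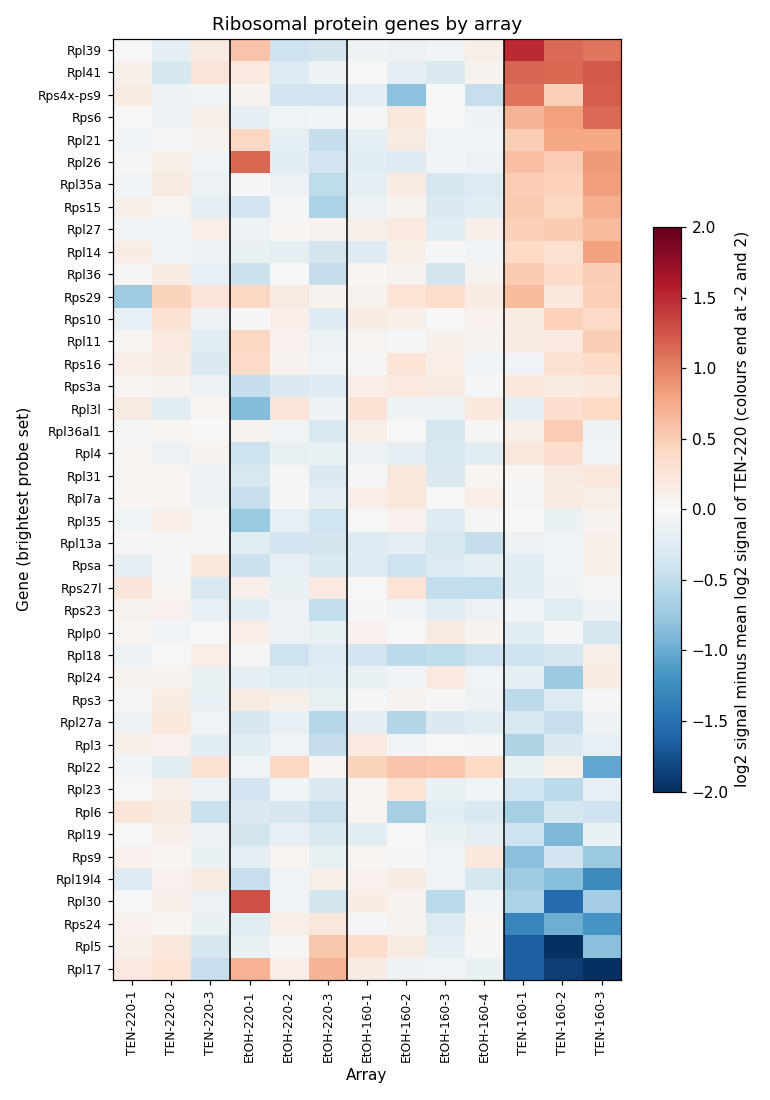
Log2 signal of each of 42 ribosomal protein genes (vertical axis, brightest probe set) on each of 13 arrays (horizontal axis, grouped by diet), minus the mean log2 signal of the 3 TEN-220 arrays; colours end at -2 and 2. Red marks a higher and blue a lower signal; the TEN-160 columns hold both reds (Rpl39, Rpl41) and blues (Rpl17, Rpl5), and single cells of EtOH-220 replicate 1 (Rpl26, Rpl30) are also deep red.

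Energy restriction without ethanol (TEN-160 against TEN-220) asked what undernutrition alone did. In it 8 members rose and 5 fell at an adjusted p under 0.05. The median change of the family was 0.03 on the log2 scale (between -0.04 and 0.08 over the alternatives run), against -0.05 over all genes. These 13 are 31% of 42 members, against 16.2% of all genes (6.39% higher, 9.81% lower). The largest rises were those of Rpl39 and Rpl41, over 2-fold, and the largest falls those of Rpl17, Rpl5 and Rps24. Members called lower had a median TEN-220 signal of 477 (171.1 to 6042). It was 2559 (894.5 to 4909) for those called higher and 4835 (177.5 to 17230) for those not called. These signals describe probe sets and were not read as transcript levels. The median size of a change was 0.36 for members and 0.35 for all genes, while the median standard error (SE) was 0.17 for members and 0.25 for all genes. By subunit, 5 rose and 3 fell of 28 genes of the large subunit, 3 rose and 2 fell of 13 of the small subunit, and the 1 stalk gene was not called. The split into higher and lower depended on the scaling: with arrays centred on their median, 5 were higher and 6 lower. Without TEN-220 replicate 2, 3 were higher and 5 lower. The BioDn ratio (0.422 to 0.497 in TEN-160, 0.133 to 0.181 in TEN-220) and the GAPDH ratio differed between these groups without overlap, and their part in the changes was not tested.

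In the large subunit, Rpl41, the smallest ribosomal protein, read 958, 698 and 1070.1 on the TEN-220 arrays, 1019, 742 and 836 on the EtOH-220 arrays, 886, 793, 731 and 941 on the EtOH-160 arrays and 2014, 1987 and 2093 on the TEN-160 arrays. The TEN-160 arrays were all above the other 10, which ran from 698 to 1070.1, and the rise over TEN-220 was 1.18 on the log2 scale (SE 0.18, 2.27-fold, adjusted p = 0.000903). Rpl39, a small protein that lines the exit tunnel of the growing peptide, read 2340.4, 2047 and 2657 on the TEN-220 arrays, 3479, 1756 and 1814 on the EtOH-220 arrays, 2166, 2151, 2189 and 2542 on the EtOH-160 arrays and 6551, 5143 and 4916 on the TEN-160 arrays. Its TEN-160 arrays were also highest of all, with EtOH-220 replicate 1 the next, and it rose by 1.23 (SE 0.23, 2.35-fold, adjusted p = 0.00268). Rpl27, a large subunit protein, read 4731, 4669 and 5355 on the TEN-220 arrays and 6859, 7075 and 7605 on the TEN-160 arrays, without overlap. Its rise was 0.55 (SE 0.13, adjusted p = 0.0116), and without TEN-220 replicate 2 it was 0.51 with an adjusted p of 0.0518. Rpl35a (0.60, SE 0.18, adjusted p = 0.0356) and Rpl21 also rose; the probe sets of Rpl21 disagreed and are described below.

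The falls in the large subunit were led by Rpl17, which lines the exit tunnel. It read 501, 527 and 318 on the TEN-220 arrays, 711, 482 and 703 on the EtOH-220 arrays, 489.9, 407, 416 and 401 on the EtOH-160 arrays and 141, 119 and 66.4 on the TEN-160 arrays. Every TEN-160 array was below every other array, and the highest TEN-160 value was below the lowest of the rest by 1.17 on the log2 scale. The fall against TEN-220 was -2.08 (SE 0.28, 4.22-fold lower, adjusted p = 0.000375), the largest change of any member's brightest probe set in the 6 comparisons. Rpl5, which binds the 5S ribosomal RNA, read 184, 200.3 and 136 on the TEN-220 arrays, 156, 174 and 249 on the EtOH-220 arrays, 222, 193, 151 and 166 on the EtOH-160 arrays and 55, 42.7 and 95.6 on the TEN-160 arrays. It was again lowest on all 3 TEN-160 arrays, where 1 of the values lay below the background signal of 46.6, and its change was -1.49 (SE 0.3, 2.81-fold lower, adjusted p = 0.00454). The probe set named for the Rpl19 copy Rpl19l4 read 738, 932 and 991 on the TEN-220 arrays and 537, 489 and 364 on the TEN-160 arrays, which do not overlap, a change of -0.94 (SE 0.21, adjusted p = 0.0083). Rpl3, which lies near the peptidyl transferase centre, read 7300.4, 7075 and 5813 on the TEN-220 arrays and 4417, 5463 and 5965 on the TEN-160 arrays. The groups overlapped, and the change of -0.35 (SE 0.15) was not called (adjusted p = 0.131); the mean of its 2 probe sets changed by 0.03.

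In the small subunit, members again moved in both directions. Rps6, the protein that S6 kinases phosphorylate downstream of mTOR, read 4755, 4428 and 5143 on the TEN-220 arrays, 4217, 4482 and 4613 on the EtOH-220 arrays, 4666, 5503, 4755 and 4452 on the EtOH-160 arrays and 7605, 8455 and 10442 on the TEN-160 arrays by its brightest probe set. The TEN-160 arrays were all above the other 10, and the rise over TEN-220 was 0.88 (SE 0.14, 1.84-fold, adjusted p = 0.00104). The pseudogene probe set Rps4x-ps9 read 1390.2, 1177 and 1216 on the TEN-220 arrays and 2668, 1746 and 2906 on the TEN-160 arrays and rose by 0.92 (SE 0.24, adjusted p = 0.0163). That call was lost without TEN-220 replicate 2 (change 0.87, adjusted p = 0.0603), without TEN-160 replicate 1 (0.84, 0.0553) and without TEN-160 replicate 3 (0.78, 0.0595). Rps15, of the head of the small subunit, rose by 0.56 (SE 0.17, adjusted p = 0.0347). Rps24, which is mutated in some families with Diamond-Blackfan anaemia, read 507, 491 and 436 on the TEN-220 arrays, 404, 523 and 559 on the EtOH-220 arrays, 471, 499.7, 394 and 488 on the EtOH-160 arrays and 194, 241 and 211 on the TEN-160 arrays. It was lower on each TEN-160 array than on any other, with a change of -1.15 (SE 0.17, 2.22-fold lower, adjusted p = 0.000797). Rps9, an early assembly protein of the small subunit, read 6437, 6226 and 5503 on the TEN-220 arrays, 5286, 6268 and 5440.1 on the EtOH-220 arrays, 6211, 5858, 5677 and 7012 on the EtOH-160 arrays and 3380.2, 4641 and 3626 on the TEN-160 arrays. Its TEN-160 arrays were also the lowest 3 of 13, and it changed by -0.65 (SE 0.15, adjusted p = 0.00835). Rpsa, which also serves as a laminin receptor, read 4019, 4482 and 5262 on the TEN-220 arrays and 3876, 4348 and 4891 on the TEN-160 arrays; the groups overlapped and the change was -0.07 (95% interval -0.37 to 0.24).

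The stalk was represented by Rplp0, which anchors the Rplp1 and Rplp2 dimers to the large subunit. It read 7255, 6769 and 7030.1 on the TEN-220 arrays, 7662, 6471 and 6354 on the EtOH-220 arrays, 7463, 7012, 7929.7 and 7366 on the EtOH-160 arrays and 5965, 6859 and 5535 on the TEN-160 arrays. The groups overlapped, and its change between TEN-160 and TEN-220 was -0.20 (95% interval -0.47 to 0.06, adjusted p = 0.278). No probe set named Rplp1 or Rplp2 alone.

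**Figure D2:**
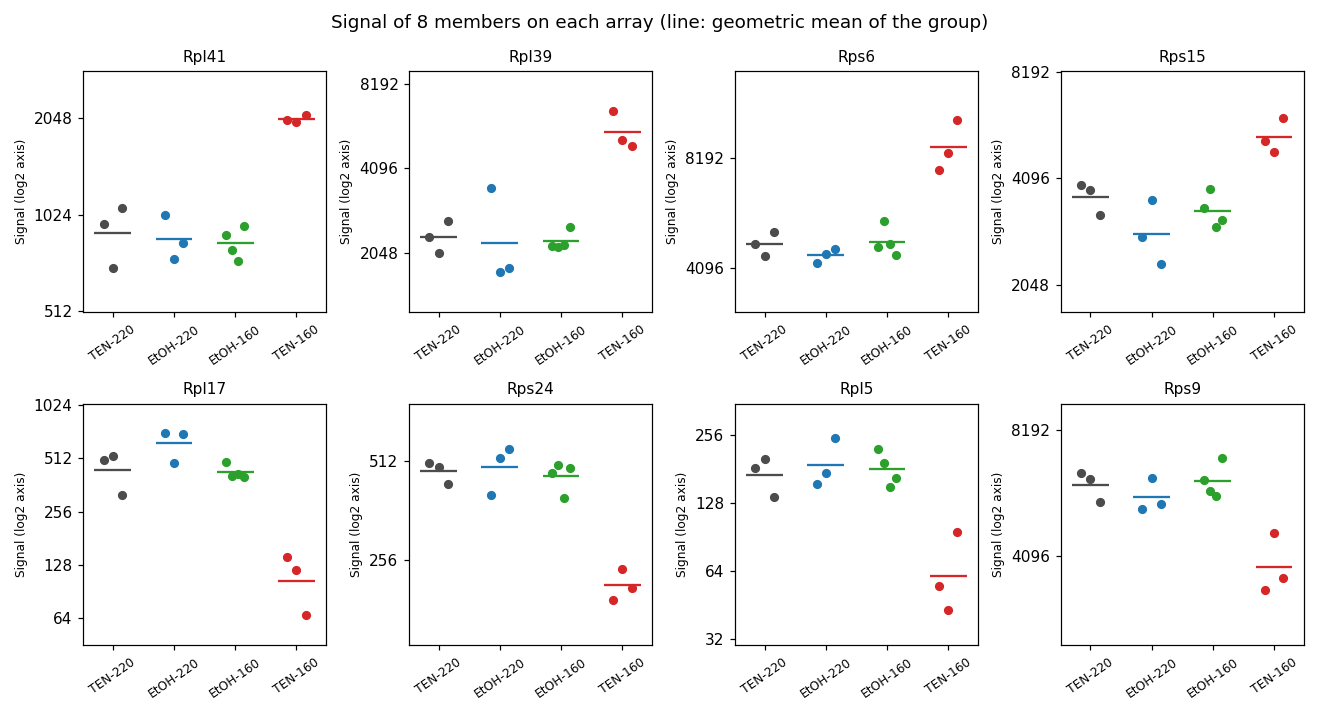
Normalised signal (vertical axis, log2 scale) of 8 ribosomal protein genes on each array, by diet (horizontal axis), with 1 point per array and a line at the geometric mean of the group. In the top panels (Rpl41, Rpl39, Rps6, Rps15) the 3 TEN-160 points lie above all others, and in the bottom panels (Rpl17, Rps24, Rpl5, Rps9) below all others.

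Several genes were measured by more than 1 probe set, and these did not always move alike. Of the 15 members with several tested probe sets, 9 had changes of 1 sign between TEN-160 and TEN-220. Rpl21, a large subunit protein, was the only member whose called probe sets had opposite signs. Its brightest probe set, M27905_at, read 2679, 2746 and 2927 on the TEN-220 arrays and 3916, 4731 and 4731 on the TEN-160 arrays (change 0.68, SE 0.19, adjusted p = 0.0291), and X15216cds_s_at read 1216, 1390.2 and 1219 on the TEN-220 arrays and 2711, 2741 and 2244 on the TEN-160 arrays (change 1.01, SE 0.21, adjusted p = 0.00625). The probe set rc_AA849648_at instead read 840.1, 841 and 634 on the TEN-220 arrays and 352, 331 and 320.3 on the TEN-160 arrays (change -1.19, SE 0.17, adjusted p = 0.0007). Its companion rc_AA849648_g_at read 424, 416 and 252 on the TEN-220 arrays and 103, 24.5 and 94.8 on the TEN-160 arrays (change -2.51, SE 0.44, adjusted p = 0.00202), with 1 value under the background signal of 46.6. All 4 probe sets thus separated TEN-160 from TEN-220 without overlap, 2 upward and 2 downward, and the direction of the gene's transcript is not settled by these values. The mean of the 4 changed by -0.51 (adjusted p = 0.0566). The call of the brightest one was also lost under 8 other alternatives, among them median centring, no filter, each TEN-220 array left out in turn and TEN-160 replicate 2 or 3 left out (adjusted p up to 0.0907).

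**Figure D3:**
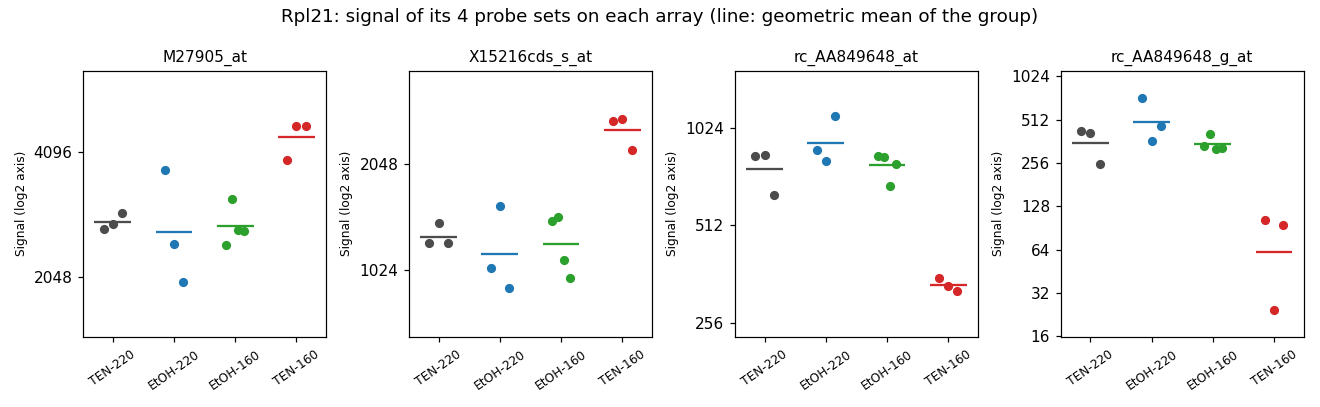
Normalised signal (vertical axis, log2 scale) of the 4 probe sets that name Rpl21 alone, on each array by diet (horizontal axis), with a line at the geometric mean of the group. In TEN-160 the probe sets M27905_at and X15216cds_s_at were higher and both rc_AA849648 probe sets lower than in TEN-220.

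Rps6 was also split by size. Its second probe set, M29358_at, read 3447, 3399 and 3164 on the TEN-220 arrays and 3688, 3239.5 and 4089.6 on the TEN-160 arrays, which overlap, and its change was 0.13 (SE 0.14, adjusted p = 0.562), beside the 0.88 of the brightest one. With the mean of both, Rps6 changed by 0.51 and kept its call. Probe sets of Rpl26 and Rps15 shared a direction: in addition to the brightest of each, X14671cds_s_at of Rpl26 read 4089.6, 4338 and 3950.2 on the TEN-220 arrays and 7366, 7956 and 9118 on the TEN-160 arrays and rose by 0.98 (SE 0.15, adjusted p = 0.000746). The rc_AA892895_i_at probe set of Rps15 read 683, 912 and 886 on the TEN-220 arrays and 2192, 2206 and 2718 on the TEN-160 arrays and rose by 1.52 (SE 0.25, adjusted p = 0.00122). Rpl26, which sits by the exit tunnel, was itself not called. Its brightest probe set had a signal of 11028 on EtOH-220 replicate 1 and of 4276 and 3836 on the other EtOH-220 arrays, and its change between TEN-160 and TEN-220 was 0.65 (SE 0.29, adjusted p = 0.138). That EtOH-220 array also read high for the rc_AA892895_r_at probe set of Rps15 (7419, 2047 and 2231 in replicate order) and for Rpl30 (639, 247 and 201). Without it, 16 members were called between TEN-160 and TEN-220. Rpl26 and the second probe sets of Rps6 and Rps15 were singled out after their values were seen.

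Ethanol at 160 kcal (EtOH-160 against TEN-160) uses the same TEN-160 arrays as the comparison above, so a value that is low there appears as a fall in one and as a rise in the other. Here 6 members were higher and 11 lower with ethanol, 17 of 42 or 40.5%, against 20.6% of all genes (11.6% higher, 9.01% lower). The median change was -0.12 for members and 0.02 for all genes. The median size of a change was 0.36 for members and 0.35 for all genes, while the median SE was 0.15 and 0.23. In the large subunit 4 rose and 8 fell of 28, and in the small subunit 2 rose and 3 fell of 13. Rplp0, the stalk gene, was not called (change 0.29, SE 0.11, adjusted p = 0.0883). Neither was Rpsa (change -0.22, SE 0.13, adjusted p = 0.253). The BioDn ratio (0.137 to 0.177 in EtOH-160) and the GAPDH ratio (1.5 to 1.73 in EtOH-160, 1.03 to 1.24 in TEN-160) both separated the groups. Of the marker genes, 2 of 4 of stellate cells and fibroblasts (median change -0.75) and 1 of 7 of hepatocytes were called lower with ethanol, and 1 of 4 of macrophages and 1 of 2 of fetal liver higher. The part of these differences in the results was not tested.

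The members higher with ethanol at 160 kcal were led by Rpl17, with a change of 2.04 (SE 0.26, 4.11-fold, adjusted p = 0.000344), Rpl5 with 1.57 (SE 0.28, 2.97-fold, adjusted p = 0.00176) and Rps24 with 1.10 (SE 0.16, 2.15-fold, adjusted p = 0.000609). Rps9 was higher by 0.68 (SE 0.14) and Rpl19l4 by 0.90 (SE 0.2). Rpl22, a large subunit protein with a closely related paralogue, read 3654, 4313 and 1947 on the TEN-160 arrays and 5440.1, 5965, 5915 and 5311 on the EtOH-160 arrays. All 4 EtOH-160 values were above the TEN-160 ones, 1 of which was far below the others, and the change of 0.85 (SE 0.23, adjusted p = 0.0179) became 0.51 (adjusted p = 0.063) without TEN-160 replicate 3. Members lower with ethanol were led by Rpl41 with -1.28 (SE 0.17, adjusted p = 0.000369), Rps6 with -0.86 (SE 0.13, adjusted p = 0.000723), Rpl39 with -1.28 (SE 0.21, adjusted p = 0.00122) and Rps4x-ps9 with -1.29 (SE 0.22, adjusted p = 0.00143). The second probe set of Rps6 changed by -0.32 (SE 0.13) and was not called (adjusted p = 0.0992). Rpl35a, needed for maturation of the large subunit RNA, read 3012, 2895 and 3772 on the TEN-160 arrays and 1867, 2379, 1666 and 1747 on the EtOH-160 arrays, a change of -0.76 (SE 0.17). Rps15 read 5216, 4867 and 6043 in TEN-160 and 3380.2, 3813, 2973 and 3127 in EtOH-160, a change of -0.69 (SE 0.16), and neither gene's groups overlapped. Rpl21's 4 probe sets split here too, with -0.71 and -1.08 for the first pair and 1.23 and 2.48 for the rc_AA849648 pair. The 2 probe sets of Rpl3 had opposite signs: 0.38 (SE 0.14, adjusted p = 0.0708) for the brightest and -0.57 (SE 0.14, adjusted p = 0.012) for X62166cds_s_at, a probe set named after its values were seen.

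The interaction tested whether the ethanol effect at 160 kcal differed from that at 220 kcal. It passed the threshold for 7 of 42 members (16.7%), against 6.07% of all genes. The median size of the interaction was 0.43 for members and 0.41 for all genes, while the median SE was 0.23 and 0.34. The ethanol effect was more positive at 160 kcal for 4 members (4.12% of all genes) and more negative for 3 (1.95% of all genes). The more positive ones were Rpl17 with 1.53 (SE 0.38, adjusted p = 0.0303), Rps24 with 1.06 (SE 0.24, adjusted p = 0.0195), Rpl19l4 with 1.04 (SE 0.29, adjusted p = 0.046) and Rps9 with 0.78 (SE 0.2, adjusted p = 0.0328). The more negative ones were Rpl41 with -1.22 (SE 0.25, adjusted p = 0.0128), Rpl39 with -1.22 (SE 0.31, adjusted p = 0.0328) and Rps6 with -0.75 (SE 0.19, adjusted p = 0.0316). The second probe set of Rps6 gave -0.055, and with the mean of both Rps6 was not called (-0.40, limma adjusted p = 0.154). Rpl5, with 1.43 (SE 0.41), fell just outside the threshold (adjusted p = 0.0511). Rpl3 was not called, with 0.63 (SE 0.21, adjusted p = 0.0824), and its other probe set gave -0.55. Rplp0 with 0.33 (SE 0.17, adjusted p = 0.245) and Rpsa with 0.07 (SE 0.19, adjusted p = 0.855) were not called either. Of the 7 calls, the one of Rpl41 alone held under every alternative that was run (adjusted p up to 0.0334). The count fell to 1 without TEN-220 replicate 1 or 2, to 2 without EtOH-160 replicate 1 and to 4 without EtOH-220 replicate 2 or EtOH-160 replicate 3. With median centring it was 4 more positive and 1 more negative.

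The comparisons that do not use the TEN-160 arrays called no member by limma. With ethanol at 220 kcal (EtOH-220 against TEN-220), 0 of 42 members were called, against 0.0319% of all genes (1 gene), and 4 members (9.52%) had an unadjusted p under 0.05, against 9.14% of all genes. The 95% interval of the change stayed within 2-fold in either direction for 40 members (95.2%), against 74.1% of all genes, so larger changes are outside the interval for nearly all of them. The GAPDH ratio differed between these groups without overlap, as it did between TEN-160 and TEN-220. The median change was -0.17 for members and -0.06 for all genes, with 31 negative and 11 positive. The smallest p-values belonged to Rps3a, of the small subunit, and to Rpl35, Rpl13a and Rpl27a of the large one. Rps3a read 6062, 6211 and 5440.1 in TEN-220 and 4227, 4815 and 4949 in EtOH-220, without overlap, but its change of -0.34 (SE 0.12) had an adjusted p of 0.386. Rpl35 read 6333, 7366 and 6586 in TEN-220 and 4025, 6009 and 5143 in EtOH-220, a change of -0.43 (SE 0.15, adjusted p = 0.393), again with no shared range. Rpl13a changed by -0.32 (SE 0.13), Rpl27a by -0.35 (SE 0.15) and Rps15 by -0.35 (SE 0.17), with adjusted p of 0.445, 0.483 and 0.515. The other 2 probe sets of Rps15 changed by 0.69 and 0.39 and the mean of all 3 by 0.24, none of them called. The first read 1907, 2166 and 1937 in TEN-220 and 7419, 2047 and 2231 in EtOH-220. The second read 683, 912 and 886 in TEN-220 and 1733, 900 and 795 in EtOH-220. In both, EtOH-220 replicate 1 stood far above the rest, so the size of these 2 changes rests mostly on that array. Rps6 changed by -0.10 (95% interval -0.40 to 0.19), Rplp0 by -0.04 (-0.31 to 0.22), Rpsa by -0.29 (-0.60 to 0.01), Rpl3 by -0.25 (-0.58 to 0.08) and Rpl5 by 0.14 (-0.50 to 0.79).

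Energy restriction with ethanol (EtOH-160 against EtOH-220) also called 0 of 42 members, against 0.224% of all genes, with 3 members at an unadjusted p under 0.05 (7.14%, against 10.7% of all genes). The median change was 0.06 for members and 0.02 for all genes, and 40 members had intervals within 2-fold. The GAPDH ratio separated these groups too (1.038 to 1.47 in EtOH-220, 1.505 to 1.726 in EtOH-160), and its part was not tested. Rps3a came nearest, reading 4227, 4815 and 4949 in EtOH-220 and 6471, 6719.5, 6685 and 5775 in EtOH-160. These do not overlap, and the change was 0.46 (SE 0.11, 1.38-fold, adjusted p = 0.0985). Rpl35 followed with 0.38 (SE 0.14), Rpl7a with 0.34 (SE 0.13), Rpl17 with -0.54 (SE 0.26) and Rpl23 with 0.26 (SE 0.13), with adjusted p of 0.33 to 0.503. Rps6 changed by 0.12 (95% interval -0.16 to 0.40), Rpl5 by -0.06 (-0.67 to 0.54), Rplp0 by 0.13 (-0.12 to 0.37), Rpl3 by 0.28 (-0.03 to 0.59) and Rpsa by 0.01 (-0.28 to 0.29). Low values in EtOH-220 enter this comparison and the preceding one with opposite signs, since both use those 3 arrays.

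Ethanol and low energy together against the control (EtOH-160 against TEN-220) likewise called 0 of 42 members, against 2.08% of all genes; 5 had an unadjusted p under 0.05 (11.9%, against 13.8% of all genes). All 42 intervals lay within 2-fold, against 75% over all genes, and the median change was -0.04 (-0.02 over all genes). The smallest p was that of Rpl18, which read 3419.7, 3688 and 4068 in TEN-220 and 2856, 2590.4, 2626 and 2778 in EtOH-160. All its EtOH-160 values were the lower ones, with a change of -0.46 (SE 0.15, adjusted p = 0.167). Rpl13a changed by -0.31 (SE 0.12), Rpl27a by -0.32 (SE 0.14), Rpsa by -0.29 (SE 0.13) and Rpl22 by 0.49 (SE 0.23), with adjusted p of 0.239 to 0.362. Rps6 changed by 0.02 (95% interval -0.26 to 0.30), Rpl5 by 0.08 (-0.52 to 0.68), Rpl3 by 0.03 (-0.28 to 0.34) and Rplp0 by 0.08 (-0.16 to 0.33). These arrays had the same low energy supply as TEN-160, where Rps6 and Rpl5 changed by 0.88 and -1.49 against the same control. The TEN-160 and EtOH-160 arrays also differed in the BioDn and GAPDH ratios, and the source of the difference in these genes was not tested.

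**Figure D4:**
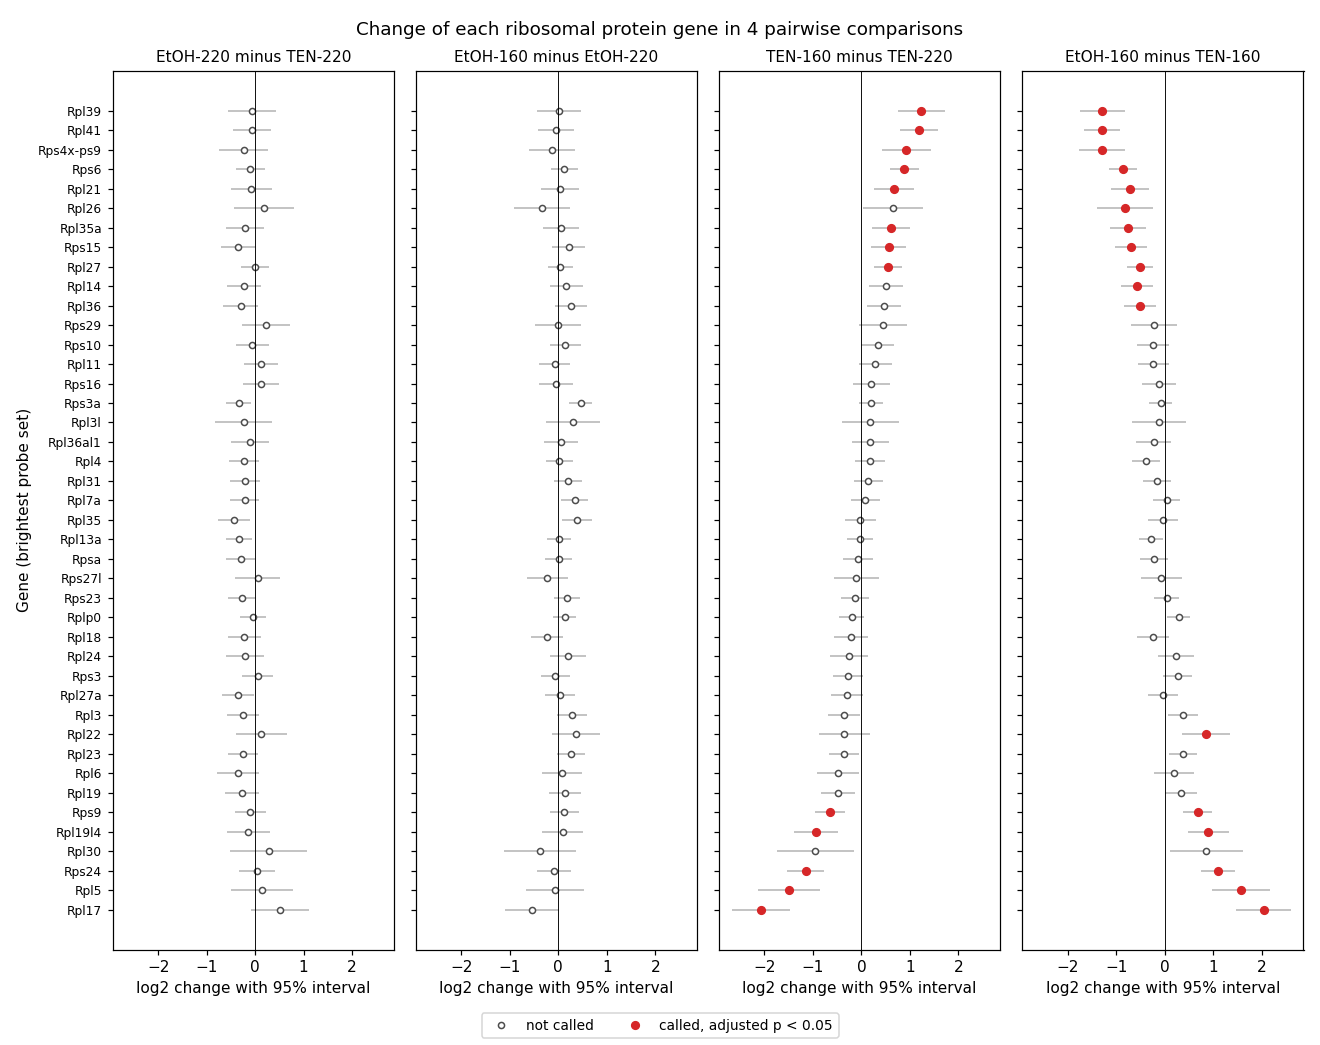
Log2 change with its 95% interval (horizontal axis) of each of 42 ribosomal protein genes (vertical axis, the same order in each panel) in 4 comparisons; filled red points passed an adjusted p under 0.05. The panels EtOH-220 minus TEN-220 and EtOH-160 minus EtOH-220 hold 0 red points, TEN-160 minus TEN-220 holds 13 and EtOH-160 minus TEN-160 holds 17, and the last 2 panels share the TEN-160 arrays.

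The members that did not pass the filter were 2 named copies. Rplp1l3, a copy of a stalk gene, lay between 9.34, the floor set on signals, and 24.7 on all 13 arrays, below the background signal of 46.6. Both probe sets of the pseudogene Rps2-ps1 failed too; the brighter one ran from 13.4 to 67.6 and the other from 9.34 to 16.0. One of the 2 probe sets of Rpl3l, a paralogue of Rpl3 best known from muscle, also failed, and its other one read 201, 152 and 182 in TEN-220 and 154, 225 and 235 in TEN-160 with no call in any comparison. Of the 5 named copies that passed, Rpl19l4 and Rps4x-ps9 were called in both TEN-160 comparisons, and Rpl36al1, Rpl3l and Rps27l in none. A further 38 probe sets named several ribosomal protein genes or copies at once and are no members; of the 37 tested, 10 were called between TEN-160 and TEN-220 (8 higher, 2 lower), 27% against 17.8% of all probe sets. In ethanol at 160 kcal 10 of these were called (3 higher, 7 lower, 27% against 22.3%). In the interaction 2 were called, both more negative, 5.41% against 7.13% of all probe sets. In each comparison without the TEN-160 arrays limma called 0 (1 to 2 at an unadjusted p under 0.05). Of all probe sets, 0.0191% were called with ethanol at 220 kcal, 0.286% with energy restriction under ethanol and 2.23% with both together.

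Other genes of the translation machinery were read from lists of named genes, between TEN-160 and TEN-220, where 16.2% of all genes were called (6.39% higher, 9.81% lower). Of 62 tested genes of these lists 6 rose and 14 fell. Rack1, a scaffold protein of the small subunit outside the naming rule, changed by -0.63 (SE 0.19, adjusted p = 0.0339). Of 11 tested genes of ribosome assembly and ribosomal RNA synthesis 5 fell and 0 rose, with a median of -0.71: Polr1b, a subunit of RNA polymerase I, changed by -1.49 (SE 0.3), Dkc1, the pseudouridine synthase of box H/ACA particles, by -1.47 (SE 0.33) and the nucleolar phosphoprotein Nolc1 by -1.15 (SE 0.27). Of 3 elongation factors 1 rose and 1 fell: Eef1a1, which delivers the aminoacyl-tRNA, by 1.04 (SE 0.15) and Eef2, the translocase, by -0.68 (SE 0.18). Of 15 initiation factors 2 rose and 3 fell, led by Eif3m with 2.08 (SE 0.24) and Eif5b with -1.61 (SE 0.18). In the mTOR pathway 2 of 11 rose and 2 fell: Pdpk1, the kinase upstream of Akt and the S6 kinases, by -3.92 (SE 0.27), Rheb, the activator of mTOR, by 0.58 (SE 0.15) and Akt1 by -0.62 (SE 0.17). Of 7 genes of the eIF2 kinases and the amino acid response 1 rose and 2 fell, among them Eif2ak3 by 1.21 (SE 0.22) and Cebpb by -1.16 (SE 0.15). Of the 14 mitochondrial ribosomal proteins limma called 0, and 0 had an unadjusted p under 0.05 (median 0.07). In the comparisons without the TEN-160 arrays limma called 0 of the 62 tested genes of these lists; at an unadjusted p under 0.05 there were 7 with ethanol at 220 kcal, 6 with energy restriction under ethanol and 6 with both together, against 9.14%, 10.7% and 13.8% of all genes.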

How the data were processed

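Liver RNA of 13 samples was measured on 1 array each of 8799 probe sets. The authors deposited linear intensity values from MAS5, per the submitters' processing notes (version not given in the sources used here). All 13 columns were used, and the 59 control probe sets were left out. The arrays were quantile normalised, which also brought TEN-220 replicate 1 to the common scale. Signals under the 10th percentile (9.34) were set to it, log2 values taken, and the 40% of probe sets with the lowest mean removed, leaving 5244. A linear model of the 4 groups was fitted in R 4.3.3 with limma 3.58.1 (lmFit, then eBayes with a variance trend). Two-sided p-values were adjusted by Benjamini-Hochberg over all 5244, separately for the 6 comparisons. Calls needed an adjusted p under 0.05. The procedure was run on simulated data for the pairwise comparisons and not for the interaction. The simulated noise was independent between arrays and probe sets, so an array-wide difference such as that of TEN-160 was not covered. Changes are differences of mean log2 signal. The background signal (46.6) is the 95th percentile of 19 controls whose targets are foreign to rat. The number of arrays limits the precision. Symbols follow the array's annotation, updated by Entrez ID for 63 of 64 member probe sets. Promoters come from RefSeq, build GRCr8, and 37 of 44 members had one. Python 3.11.15 and matplotlib 3.10.9 made the figures.

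Named members were, per comparison, up to 6 higher and 6 lower with the smallest p, or the 5 with the smallest p where fewer than 4 were called. Called or not, Rplp0, Rpsa, Rps6, Rpl3 and Rpl5 were given, with members whose called probe sets had opposite signs, the 6 whose TEN-160 arrays lay farthest outside the rest, and members that failed the filter. Of each list up to 3 called genes were named. The members and the lists were chosen with earlier results of these data known. Alternatives were trimmed-mean scaling, median centring, no floor, no filter, a stricter filter, no variance trend, a replicate block, only the groups compared, averaging a gene's probe sets, and leaving out each array.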

Additional observations from a re-analysis of the deposited data

Results flagged for a closer look

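The signal of Rpl39 in the EtOH-160 group had 1 array apart from the rest: it read 2542, while the other 3 arrays read 2151 to 2189. This comes from a test of the farthest value against the range of the group, made for 24 members in the 1 group of 4 arrays, and chance gives about 1 such result in 20. The ethanol effect differed between the energy supplies for 7 members, by the interaction term of limma. It was more positive at 160 kcal than at 220 kcal for Rpl17 (1.53 on the log2 scale), Rps24 (1.06), Rpl19l4 (1.04) and Rps9 (0.78). It was more negative at 160 kcal for Rpl41 (-1.22), Rpl39 (-1.22) and Rps6 (-0.75). The second probe set of Rps6 gave -0.055. Of the 7 calls, the one of Rpl41 alone held under every alternative that was run. All 7 members had their TEN-160 arrays wholly outside the other 10. The interaction term uses those same TEN-160 arrays, so their position is no separate support for it. The BioDn ratio also set the TEN-160 arrays apart, and its part was not tested.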

How the results depend on the processing

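A count of called members was scored as kept if it was within 1.5 times the stated one, or 0 in both. A median was scored as kept if it moved by less than 0.082 on the log2 scale. That limit is the within-group SD of the members' median per array. By these rules 256 counts and medians stayed and 12 moved. In the 3 comparisons without the TEN-160 arrays 0 members were called under every alternative, so all their counts scored as kept. Between TEN-160 and TEN-220 the count was 11 to 15 under other settings and 8 to 16 when single arrays were left out, the 8 without TEN-220 replicate 2; with ethanol at 160 kcal it was 14 to 18 and 15 to 20. The interaction count was 4 without the filter, 3 without the variance trend and 1 to 7 when single arrays were left out, and its median change was 0.18 with median centring and from -0.0044 (without TEN-160 replicate 1) to 0.15 (without TEN-160 replicate 3) when single arrays were left out. With median centring the median change with ethanol at 160 kcal was -0.033. The mean of the probe sets of Rpl21 changed by -0.51 between TEN-160 and TEN-220, opposite to its brightest one. Of the named members' changes, 1442 kept direction and side of the threshold, 66 lost the call, 3 gained it and 25 turned sign; the causes were not tested. Beside Rpl21, the sign turned only for changes that were not called. When the probe sets of a gene were averaged, these were Rps15 with ethanol at 220 kcal (0.24), Rpl3 with ethanol at 160 kcal (-0.092), between TEN-160 and TEN-220 (0.034) and with both together (-0.058), and Rps6 with both together (-0.086). With single arrays left out, Rpl5 ran from -0.056 to 0.28 and Rplp0 from -0.13 to 0.0049 with ethanol at 220 kcal, and Rpsa from -0.16 to 0.035 between TEN-160 and TEN-220. In energy restriction with ethanol Rpsa ran from -0.0597 to 0.075 and Rpl5 from -0.203 to 0.14. With both together Rpl5 ran from -0.087 to 0.19, Rpl3 from -0.071 to 0.092 and Rps6 from -0.043 to 0.074, and in the interaction Rpsa ran from -0.029 to 0.16. Trimmed-mean scaling moved the median interaction of all probe sets from 0.04 to -0.08. Replicate numbers did not pair the arrays: 18 same-numbered pairs had correlations of deviations from -0.112 to 0.0853, and 5 of 12 arrays correlated best with their own number. With the replicate block the calls were 15 with ethanol at 160 kcal, 11 between TEN-160 and TEN-220 and 4 in the interaction; Rpl21 changed by 0.68 between TEN-160 and TEN-220 (limma adjusted p = 0.0559), and Rpsa by -0.026 in energy restriction with ethanol. The 3 or 4 arrays of a group limit which small changes can be called.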
